A study of Mus musculus with 6 samples.

Results

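The interferon regulatory factors (IRFs) are a family of transcription factors, and 8 of them, Irf1, Irf2, Irf3, Irf4, Irf5, Irf7, Irf8 and Irf9, were followed here among 18820 tested genes. A gene was a member if a probe set (the group of array probes that reports a transcript) carried its symbol alone in the platform annotation. Irf1 had more than 1 such probe set, and the brightest by its mean on the 6 arrays was used. RNA came from bone marrow-derived macrophages (BMDMs) on 6 Affymetrix arrays, 3 of wild-type cells (WT) and 3 of cells labelled GPS2KO. GPS2 belongs to the NCoR and SMRT co-repressor complexes, which hold HDAC3. The labels describe the second group as a macrophage knockout or MKO, without naming a Cre driver or the deleted exons, and give no strain. The donors of both groups were male mice aged 12 to 16 weeks, and no stimulus was given to either. The marrow cells of both groups were cultured for 7 days with 30% medium conditioned by L929 fibroblasts, a source of macrophage colony-stimulating factor. Nothing in the labels says that the arrays of a group came from different animals. So a p-value here speaks of the spread among these arrays alone, and that spread may be technical.

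All IRFs bind DNA through a related domain at the amino end, whose contacts are made on repeats of the letters GAAA. Such repeats form the interferon-stimulated response element (ISRE). IRF3 and IRF7 are switched on by phosphorylation below sensors of nucleic acids and lipopolysaccharide and induce the interferon genes, while IRF5 acts below MyD88 on inflammatory cytokines. Interferon then acts through its receptor, and STAT2 and IRF9 become part of the complex ISGF3, which binds ISREs and also raises IRF7. IRF1 activates and IRF2 mostly restrains an overlapping set of sites, and interferon gamma induces Irf1 through a palindromic site called GAS. IRF4 and IRF8 bind weakly alone and act with partners such as PU.1 on composite sites for Ets and IRF proteins, and IRF8 is needed for the monocyte and macrophage lineage.

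Since several IRF genes are themselves targets of interferon, their promoters were searched for 4 motifs on both strands. The ISRE core was GAAA, any 2 bases and GAAA again. The Ets-IRF composite was GGAA, any 2 bases and GAAA, so both can overlap. GAS was TTCNNNGAA, and kappaB was GGG, any 5 bases and CC. The windows run from 250 bases before to 50 after each annotated start in RefSeq (GRCm38.p6), and all 8 genes matched, with 11 windows. The bases before the start are shown for the windows that hold a match of the first 3 motifs, and for Irf7, the gene with the largest change. Capitals mark matches of the first 3 motifs.
Irf1, chr11:53769764-53770013, plus strand: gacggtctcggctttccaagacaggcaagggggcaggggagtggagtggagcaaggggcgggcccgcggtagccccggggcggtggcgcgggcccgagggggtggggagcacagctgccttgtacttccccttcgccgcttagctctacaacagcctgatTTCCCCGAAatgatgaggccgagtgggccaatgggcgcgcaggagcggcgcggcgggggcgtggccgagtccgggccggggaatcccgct
Irf2, chr8:46739495-46739744, plus strand: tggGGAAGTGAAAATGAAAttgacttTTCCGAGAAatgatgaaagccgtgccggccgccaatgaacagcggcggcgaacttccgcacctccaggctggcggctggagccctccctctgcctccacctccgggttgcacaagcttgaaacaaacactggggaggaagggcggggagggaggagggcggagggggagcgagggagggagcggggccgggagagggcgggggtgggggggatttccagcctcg
Irf7, chr7:141266425-141266674, minus strand: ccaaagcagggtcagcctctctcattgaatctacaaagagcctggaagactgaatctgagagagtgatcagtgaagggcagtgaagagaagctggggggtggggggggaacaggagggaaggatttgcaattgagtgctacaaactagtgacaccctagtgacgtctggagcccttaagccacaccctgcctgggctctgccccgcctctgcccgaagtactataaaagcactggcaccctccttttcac
Irf8, chr8:120736108-120736357, plus strand: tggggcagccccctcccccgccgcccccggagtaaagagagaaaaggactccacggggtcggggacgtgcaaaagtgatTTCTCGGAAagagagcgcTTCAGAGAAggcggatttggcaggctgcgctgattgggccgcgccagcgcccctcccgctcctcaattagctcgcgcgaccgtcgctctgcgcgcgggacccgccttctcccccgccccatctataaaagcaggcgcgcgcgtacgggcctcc
The Irf1 window has a GAS match that begins 90 bases before the start. Irf2 has an ISRE core at 241 bases, which overlaps an Ets-IRF match at 247, and a GAS match at 224. Irf8 has GAS matches at 171 and 153 bases before its first start. Irf7 shows no capitals: these letters are not in this window. Neither window of Irf9, nor the windows of Irf3, Irf4 and Irf5, holds any of the 3. Of 32851 promoter windows of this length in the table, 3.44% hold the ISRE core, 8.3% the GAS letters and 2.72% the Ets-IRF letters. The kappaB letters are in 50.8% of all windows and in 8 of the 11 IRF windows. Counted by gene, they are in at least 1 window of 53.5% of all genes and of all 8 factors. Letters this common separate little. A match of letters is a description and not evidence of a bound site.

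In resting GPS2KO macrophages, 3 of the 8 factors fell, 0 rose and 5 did not pass the threshold, which was an adjusted p under 0.05 in limma after Benjamini-Hochberg adjustment over all tested genes. Those that fell were Irf7, to 50.6% of the WT signal, Irf1, to 79.7%, and Irf9, to 86.3%. Of all tested genes 6.72% passed, 3.83% falling and 2.9% rising. At an unadjusted p under 0.05, the same 3 members passed, beside 20.8% of all genes. The median difference of the 8 members was -0.10 on the log2 scale, beside -0.0077 over all tested genes. All 8 had lower means in GPS2KO, as did 53.6% of tested genes, although Irf3 was higher by 0.0047 after quantile normalization. The GPS2KO arrays lay wholly below the WT arrays for 4 members, Irf1, Irf2, Irf7 and Irf9, and for 15.2% of all tested genes. In a culture measured in bulk, fewer cells of a type and less RNA per cell cannot be told apart.

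**Figure D1:**
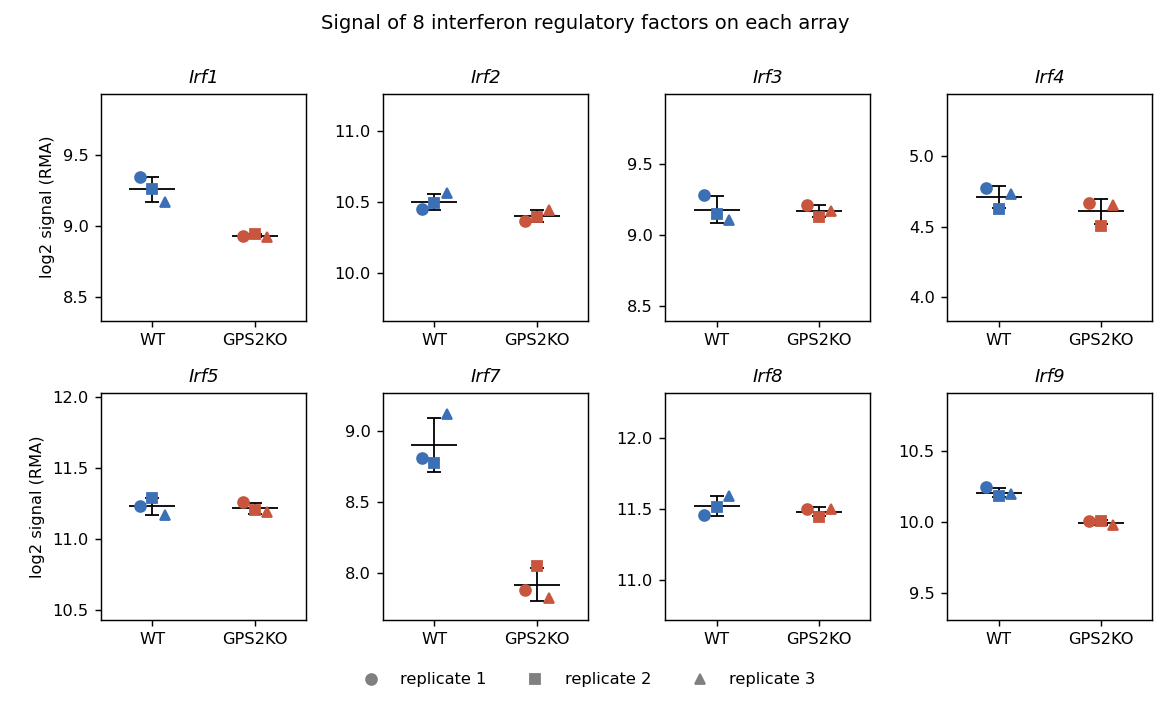
Log2 signal of each of the 8 factors (vertical axis, each panel spanning 1.6 log2 units) in WT and GPS2KO, with 1 symbol per array, the group mean as a horizontal line and the SD as a bar (n = 3). Irf7 drops from arrays between 8.77 and 9.12 to arrays between 7.82 and 8.05, Irf1 and Irf9 separate by less, and the groups of Irf3, Irf4, Irf5 and Irf8 overlap.

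The array medians lay between 5.57 and 5.60, which the quantile normalization before deposit makes alike whatever the arrays' quality. Pearson correlations across genes were 0.9989 to 0.9991 for pairs within a group and 0.9977 to 0.9981 for pairs between the groups. Gps2 itself was at 10.96 ± 0.04 in WT and 10.21 ± 0.07 in GPS2KO (SD, n = 3 each), a fall of 0.75 (SE 0.0472, limma adjusted p = 0.000256) to 59.7% of WT. No array of either group overlapped the other; an exact permutation test (2-sided) cannot go below its value of p = 0.1 with 20 arrangements. Since the deleted exons are not stated, where the probes lie relative to them is not known here. The macrophage label was checked on 12 markers, among them Adgre1, Csf1r, Cd68 and C1qa. All 12 were above the dim limit of 5.49, the 40th percentile of the gene means, and 3 of them rose and 0 fell, and their mean level was 12.17 to 12.22 in WT and 12.31 to 12.32 in GPS2KO. Dendritic cells and B cells also express Irf4 and Irf8, and plasmacytoid dendritic cells much Irf7. Of 11 dendritic cell markers 6 were under the dim limit, 1 rose (Itgax, shared with macrophages) and 0 fell, with mean levels of 6.07 to 6.15 in WT and 6.15 to 6.21 in GPS2KO. Of 7 B and plasma cell markers 5 were under the limit, 1 fell (Cd79b, by 0.46) and 0 rose, with mean levels of 5.62 to 5.67 and 5.56 to 5.60. Of 4 monocyte markers Ccr2 fell and F13a1 rose, with mean levels of 7.11 to 7.12 and 7.01 to 7.05. Of 7 osteoclast markers Atp6v0d2 and Ctsk rose and Ocstamp fell, with mean levels of 6.81 to 6.87 and 6.91 to 7.02. Of 10 fibroblast and stromal markers Dcn rose and Pdgfrb and Col1a1 fell, with mean levels of 10.06 to 10.13 in each group. Only 1 of these 10 was under the dim limit. The GPS2KO arrays lay wholly below WT for 5 of them and wholly above for 1, beside 15.2% and 11.9% of all tested genes. Of the neutrophil (11), T and NK cell (9) and mast cell, basophil and eosinophil (8) markers, Ngp, Cd4 and Siglecf rose, Prg2 fell, and 9, 8 and 6 were under the dim limit. Their part in the changes of the factors was not tested.

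Irf7, which amplifies the type I interferon response, had the largest change. WT cells gave log2 signals of 8.81, 8.77 and 9.12, and GPS2KO cells 7.88, 8.05 and 7.82. WT replicate 3 was the highest array and GPS2KO replicate 3 the lowest, and the lowest WT array lay 0.72 above the highest GPS2KO array. The means were 8.90 ± 0.19 and 7.92 ± 0.12 (SD, n = 3 each), a fall of 0.98 (SE 0.1, 95% confidence interval -1.22 to -0.75, limma adjusted p = 0.00149), or 1.98-fold. The interval corresponds to 43.1% to 59.5% of the WT signal. Among tested genes 36 had a larger difference in either direction. The fall was between 0.87 (without WT replicate 3) and 1.05 (without GPS2KO replicate 2) with any 1 array left out, and passed each time.

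Irf3, the closest relative of Irf7 and the factor that starts interferon induction from a protein already present in resting cells, did not pass. Its signal was 9.28, 9.14 and 9.10 in WT and 9.21, 9.13 and 9.17 in GPS2KO. All GPS2KO arrays lay within the WT range. The difference was -0.0095 (SE 0.0548, 95% confidence interval -0.14 to 0.12, limma adjusted p = 0.947), which allows between 90.9% and 109% of the WT signal. Irf5, which drives inflammatory cytokine genes, was at 11.23, 11.29 and 11.17 in WT and 11.26, 11.20 and 11.19 in GPS2KO. Its groups overlapped as well. The difference was -0.01 (SE 0.0455, interval -0.12 to 0.09, limma adjusted p = 0.907), or 92.1% to 107% of WT.

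Irf9, the DNA-binding subunit of ISGF3, fell by a small amount with little spread. Its signal was 10.25, 10.18 and 10.20 in WT and 10.01, 10.01 and 9.98 in GPS2KO. The gap between the groups, 0.17, was larger than the range within either. The means were 10.21 ± 0.03 and 10.00 ± 0.02 (SD, n = 3 each), a difference of -0.21 (SE 0.0379, interval -0.30 to -0.12, limma adjusted p = 0.0165), or 1.16-fold. The limma call was lost when WT replicate 1 was left out (adjusted p = 0.0585), or any GPS2KO array (0.053 for replicate 1, 0.0579 for 2 and 0.0695 for 3), and when all 35556 probe sets of the table were adjusted together (0.0522).

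Irf1, induced by interferon gamma and an activator of antigen presentation and of GTPase genes, was at 9.34, 9.26 and 9.17 in WT and 8.93, 8.94 and 8.92 in GPS2KO. The WT arrays spanned 0.18 and the GPS2KO arrays only 0.022, and the lowest WT array was 0.23 above the highest GPS2KO array. The fall was 0.33 (SE 0.0512, interval -0.45 to -0.21, limma adjusted p = 0.00953), or 1.26-fold, and it passed with any 1 array left out (adjusted p up to 0.0406). A second probe set for Irf1 was dim, at 4.65, 4.68 and 4.83 in WT and 4.70, 4.61 and 4.66 in GPS2KO, where the groups overlapped. In a fit over all 21218 probe sets with 1 symbol, of which 5.73% passed, it differed by -0.06 (SE 0.0571, limma adjusted p = 0.597), and the brighter one by -0.33 (adjusted p = 0.0116). With the mean of both, the Irf1 difference was -0.20.

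Irf2, which competes with IRF1 for its sites, was at 10.45, 10.49 and 10.56 in WT and 10.36, 10.40 and 10.44 in GPS2KO. The groups were separate by only 0.0042. The difference of -0.10 (SE 0.0454, interval -0.20 to 0.0076) did not pass (limma adjusted p = 0.278). Its promoter is the 1 IRF window with an ISRE core.

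Irf8, the lineage factor, was at 11.46, 11.51 and 11.59 in WT and 11.50, 11.45 and 11.50 in GPS2KO. The groups overlapped, and the difference was -0.04 (SE 0.0467, interval -0.15 to 0.07, limma adjusted p = 0.692), or 90.2% to 105% of WT. Irf4, which acts in alternative activation of macrophages and in dendritic and plasma cells, was the member under the dim limit. Its signal was 4.77, 4.62 and 4.73 in WT and 4.66, 4.50 and 4.65 in GPS2KO, overlapping, with a difference of -0.10 (SE 0.0608, interval -0.24 to 0.04, limma adjusted p = 0.401). The other 7 members were above the limit.

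**Figure D2:**
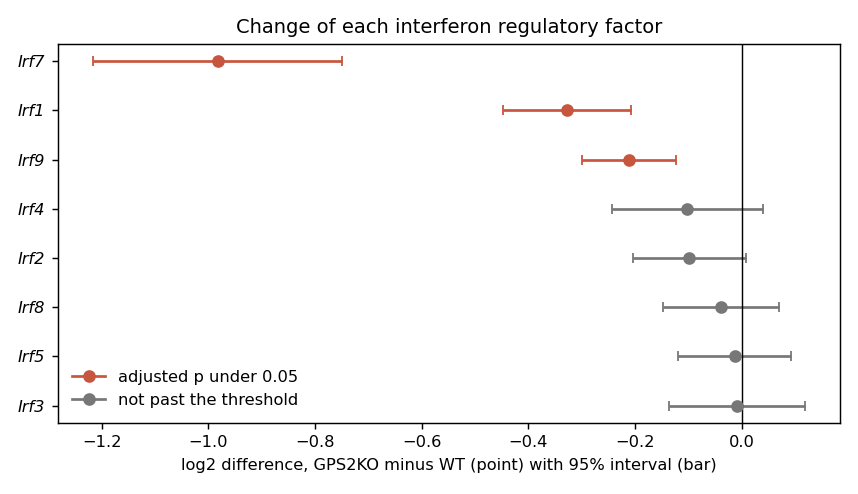
Difference in log2 signal, GPS2KO minus WT, for each factor (horizontal axis), with limma's 95% confidence interval as a bar; red marks adjusted p under 0.05. Irf7 stands at -0.98, Irf1 at -0.33 and Irf9 at -0.21, and the intervals of the other 5 include 0.

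Whether related factors changed unequally was tested within arrays, on the log2 signal of the first factor minus that of the second, in 5 pairs. Irf7 changed more than Irf3, by 0.97 (95% interval 0.50 to 1.45, linear model), and more than Irf5, by 0.97 (interval 0.52 to 1.41). For Irf1 minus its antagonist Irf2 the difference between genotypes was -0.23, with an interval of -0.48 to 0.02 that includes 0. It was -0.10 with the mean of the Irf1 probe sets. Irf4 and Irf8, which share partners, differed by -0.06 (interval -0.26 to 0.14). Since Irf4 was under the dim limit, this pair sets a dim signal against a bright one and says little about unequal changes. Irf9 and Stat2, subunits of ISGF3, differed by 0.0025 (interval -0.18 to 0.19), which allows unequal changes of that size in either direction. The arrays did not overlap between genotypes for the first 3 of these pairs, and the pairs with Irf7 share its values. Of single tested genes 27.1% did not overlap in either direction, and no such share was computed for pairs. The exact permutation p was 0.1 for each of the 3, the smallest possible, or 0.167 adjusted over the 5 pairs. It was 0.6 for Irf4 with Irf8 and 1 for Irf9 with Stat2.

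The genes around the factors were read from 10 lists, which share some genes. The lists held 187 distinct tested genes other than the 8 factors, and 55 of them passed. Beside each list's count stands the 6.72% of all tested genes, a share that includes the genes under the dim limit. Some lists hold none of these, as with the 23 activators and 19 inhibitors below. In a fit without dim genes 1962 of 11292 genes passed, a higher share, which leaves less distance to the lists of brighter genes. Of the 55, 36 passed whichever array was left out. At the upstream end, of 14 interferon genes 0 passed in limma, 13 were under the dim limit, and the median difference was 0.01. At an unadjusted limma p under 0.05, 2 of the 14 passed, beside 20.8% of all genes. Ifnb1 differed by -0.03 (limma adjusted p = 0.83), and Ifna16 and Ifna14, the lowest p in that list, by -0.34 and -0.14 (0.0813 and 0.23). With a variance trend Ifna16 passed (0.0361). Interferon alpha genes are near-identical copies whose probes may share signal. Of 15 interferon receptors, JAK and STAT proteins, 1 rose and 0 fell, with a median of -0.06. That is 6.67% called, near the background of 6.72%, and with a variance trend 3 fell. Stat4, a STAT of interleukin 12 signalling, rose by 0.44 (SE 0.0884, adjusted p = 0.0271), a call that ended without WT replicate 1 (0.0692) or GPS2KO replicate 1 (0.0823), 2 (0.0738) or 3 (0.0875), and with all probe sets adjusted together (0.092). Stat2 differed by -0.21 (SE 0.0551, adjusted p = 0.064), and passed with a variance trend (0.0144), after median centring (0.0405), without dim genes (0.03) and without GPS2KO replicate 2 (0.0402). The receptor chains Ifnar1 and Ifnar2 differed by -0.07 and -0.06 (adjusted p = 0.305 and 0.452), and Ifngr1 by -0.10 (0.165).

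Sensors and kinases that activate IRF3, IRF5 and IRF7 split. Of 23 tested, 4 fell, 3 rose and 16 did not pass (30.4% called), with a median of -0.0093. The rises were those of the Toll-like receptors Tlr8 (0.78, SE 0.0516, adjusted p = 0.00028), Tlr7 (0.53, SE 0.0489, 0.00107) and Tlr4 (0.31, SE 0.0408, 0.00448). Tlr9, the endosomal receptor of DNA, fell by 0.57 (SE 0.0655, 0.00249), and so did Ikbke, a kinase of IRF3 and IRF7, by 0.38 (SE 0.0428, 0.00248). The other falls were the RNA sensors Ddx58, which encodes RIG-I, by 0.33 (SE 0.0425, 0.00396), and Ifih1, which encodes MDA5, by 0.34 (SE 0.0494, 0.00726), both also interferon-stimulated. Tlr3 differed by -0.10 (adjusted p = 0.209) and the adaptor Myd88 by -0.10 (0.281). Tbk1, the main IRF3 kinase, differed by 0.10 (0.287).

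Of 20 partner factors and co-regulators of IRF proteins, 0 passed in limma, and the median was -0.06. At an unadjusted limma p under 0.05, 6 of the 20 passed, beside 20.8% of all genes. With a variance trend in limma 2 rose and 2 fell. Spi1, which encodes PU.1, differed by -0.04 (adjusted p = 0.615), Batf3 by 0.04 (0.683) and the IRF2 co-repressor Irf2bp2 by -0.12 (0.257). Ets1 (-0.15, 0.0566) and Ets2 (0.14, 0.0635) came nearest to the threshold, and both passed without dim genes (0.0198 and 0.0217). Of 19 inhibitors of IRF activity and interferon signalling, 3 fell, 1 rose and 15 did not pass (21.1% called), with a median of -0.04. Usp18, which restrains the interferon receptor and is itself interferon-stimulated, fell by 1.08 (SE 0.173, adjusted p = 0.0103), a call that ended when all probe sets were adjusted together (0.0523). The phosphatase Ptpn6 fell by 0.24 (SE 0.0384, 0.0102) and Nlrc3 by 0.27 (SE 0.0432, 0.0104). Tnfaip3 rose by 0.26 (SE 0.0447, 0.0151), a call that ended without GPS2KO replicate 2 (0.0609) or 3 (0.0622) and with all probe sets adjusted together (0.0541). Otud5 and Socs3 differed by -0.15 and -0.17 (0.078 and 0.137).

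At the target end, 22 of 34 interferon-stimulated genes fell, 0 rose and 12 did not pass (64.7% called, beside 6.72% of all genes), with a median of -0.38. At an unadjusted p under 0.05, 27 passed, beside 20.8% of all genes. Zbp1, which senses Z-form nucleic acids, fell by 0.69 (SE 0.0648, adjusted p = 0.0011), Tor3a by 0.39 (SE 0.0395, 0.00143), the exonuclease Isg20 by 0.45 (SE 0.0468, 0.00168) and Ifit2, which binds viral RNA, by 0.99 (SE 0.122, 0.00324). The nearest miss was Ifi35 (-0.20, 0.0503), followed by Stat2. The count of falls was 14 without WT replicate 3 and 12 when all probe sets were adjusted together. Of the 34 genes, 25 matched a promoter, and 13 of these had an ISRE core in at least 1 window. Since the list was chosen as genes under ISRE-type control, that share follows from the choice and is no result. Among the genes that fell, 8 of 13 with a promoter held it, and among those that did not pass, 5 of 12. The sites of the 8 are shown in windows of 30 bases to set them beside the IRF promoters above, where only Irf2 has one. Where a gene has several, the one farthest before the start is given. Each is written on the strand that reads GAAA, with the 10 bases of the core in capitals.
Ifit1, chr19:34640775-34640804, minus strand: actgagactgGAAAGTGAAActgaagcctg
Ifit3, chr19:34583363-34583392, minus strand: accagaagagGAAAGTGAAActtaccactg
Isg15, chr4:156200877-156200906, minus strand: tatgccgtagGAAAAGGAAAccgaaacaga
Rsad2, chr12:26456553-26456582, plus strand: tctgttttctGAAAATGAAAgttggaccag
Oas3, chr5:120777715-120777744, minus strand: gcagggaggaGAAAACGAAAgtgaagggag
Ifih1, chr2:62646206-62646235, minus strand: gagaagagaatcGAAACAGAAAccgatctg
Ddx58, chr4:40239804-40239833, plus strand: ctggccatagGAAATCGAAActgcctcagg
Gbp3, chr3:142559989-142560018, minus strand: ctgggaaataGAAACTGAAActgtgtcctg
The Ddx58 and Ifih1 sites lie 2 and 32 bases after the annotated start, and the others before it. Ifit1, at -1.51 (SE 0.269, adjusted p = 0.0161), Isg15, at -0.29 (SE 0.0539, 0.0183), and Gbp3, at -0.24 (SE 0.0424, 0.0145), lost their calls with some arrays left out. These arrays were WT replicate 1 (0.0618, 0.0539 and 0.0539), WT replicate 3 (0.0646, 0.0587 and 0.0522), GPS2KO replicate 1 for Isg15 and Gbp3 (0.0681 and 0.0567) and GPS2KO replicate 3 for Ifit1 and Isg15 (0.0604 and 0.0698). Ifit3 (-1.52, SE 0.217, 0.00664), Rsad2 (-1.03, SE 0.164, 0.0103) and Oas3 (-0.71, SE 0.103, 0.00702) passed with any 1 array left out. With all probe sets adjusted together the calls of Ifit1 (0.0715), Isg15 (0.0668), Gbp3 (0.0515) and Rsad2 (0.0522) ended. Isg15, with means of 5.13 and 4.84, was under the dim limit in both groups.

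Of 27 genes associated with IRF1 or induced by interferon gamma, 9 fell, 2 rose and 16 did not pass (40.7% called), with a median of -0.16. The chemokines Cxcl10 and Cxcl9 fell by 1.62 (SE 0.126, adjusted p = 0.000479) and 1.37 (SE 0.133, 0.00121), and the peptide transporter Tap1 by 0.34 (SE 0.0446, 0.00435). The GPS2KO mean of Cxcl9, 4.84, was under the dim limit. The rises were those of Cd274, which encodes PD-L1, by 0.42 (SE 0.0378, 0.000883), and Gbp7, by 0.33 (SE 0.0661, 0.0264), the latter call ending without WT replicate 1 (0.0783) or 3 (0.0889) or GPS2KO replicate 1 (0.0862) or 2 (0.0858). Gbp5 and Nlrc5, both classical targets, differed by -0.36 and -0.19 (0.0616 and 0.0629). Without WT replicate 3 the count of falls was 5, and with all probe sets adjusted together it was 4.

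Among genes tied to Irf5 and Irf8, which did not pass, calls went both ways, and among those tied to Irf4 the calls were rises only. Of 12 cytokine genes associated with IRF5, 3 rose, 3 fell and 6 did not pass (50% called), with a median of 0.08. Ccl4 and Ccl3 rose by 0.88 (SE 0.0664, adjusted p = 0.000434) and 0.36 (SE 0.0438, 0.00304), while Ccl5 fell by 0.56 (SE 0.0863, 0.0088) beside Cxcl10. Il1a (0.65, SE 0.143, 0.0379) and Il10 (-0.29, SE 0.0593, 0.0298) made up the rest, and their calls ended with most single arrays left out (up to 0.124 and 0.101). Il1a, with means of 4.43 and 5.08, was under the dim limit in both groups. Il1b and Il23a differed by 0.17 and 0.10 (0.107 and 0.238). Of 12 alternative activation genes associated with IRF4, 2 rose and 0 fell (16.7% called), with a median of -0.08. Those were the mannose receptor Mrc1 (0.49, SE 0.0471, 0.00121) and Il4ra (0.22, SE 0.0419, 0.0224), of which Il4ra no longer passed (up to 0.0858) when any array was left out except WT replicate 3. Clec10a and Ccl17 differed by -0.30 and -0.24 (0.0658 and 0.0808). Of 22 myeloid genes associated with IRF8, 4 fell, 2 rose and 16 did not pass (27.3% called), with a median of 0.02. The falls were those of the class II genes H2-Aa (1.09, SE 0.0605, 0.000178), H2-Eb1 (1.03, SE 0.0838, 0.000566) and H2-Ab1 (1.23, SE 0.102, 0.000631) and of the invariant chain Cd74 (0.30, SE 0.0497, 0.0119). Cebpa, a myeloid factor, rose by 0.39 (SE 0.0485, 0.00354), and Ctsc by 0.16 (SE 0.0374, 0.0498), the latter call ending without any 1 of the arrays (up to 0.154) and after quantile normalization (0.066) or median centring (0.0852). The protease Ctss and the inflammasome gene Nlrc4 differed by 0.14 and -0.22 (0.0707 and 0.107).

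**Figure D3:**
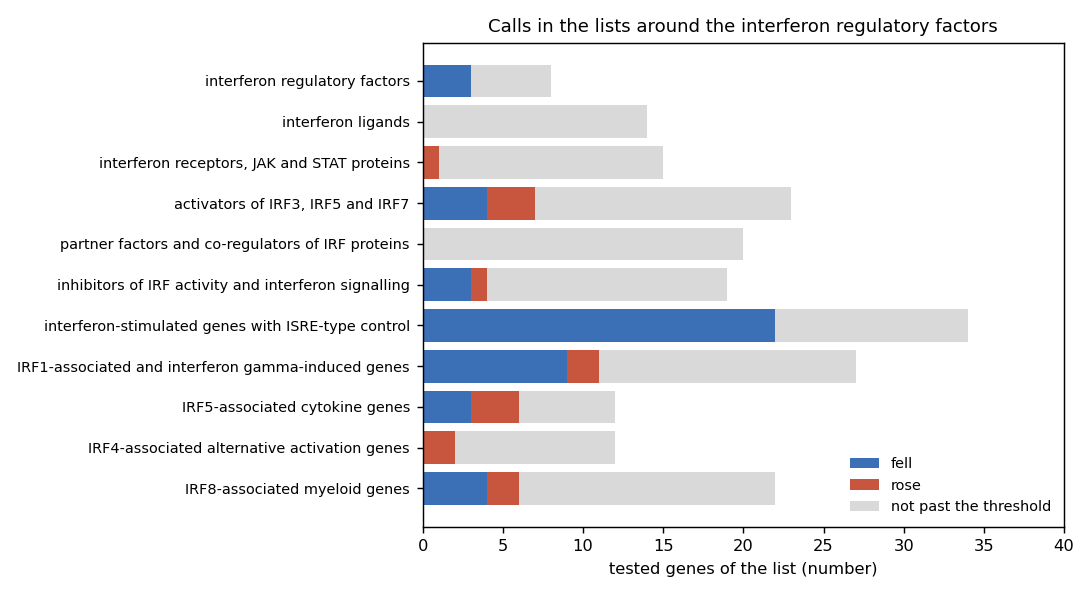
Number of tested genes in each list (horizontal axis) that fell (blue), rose (red) or did not pass limma's adjusted p threshold of 0.05 (grey); the lists share some genes. The longest blue bar is that of the interferon-stimulated genes, with 22 of 34, and the interferon ligands and the partner factors have no called gene.

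Array by array, Irf7 and the interferon-stimulated genes stood in the same order. Relative to the WT mean, Irf7 was at -0.09, -0.13 and 0.22 on WT replicates 1, 2 and 3 and at -1.02, -0.85 and -1.08 on the GPS2KO replicates. The list median, without the IRFs, was at 0.0044, -0.07 and 0.07 in WT and at -0.39, -0.30 and -0.42 in GPS2KO. In both, WT replicate 3 was highest and WT replicate 2 lowest of the WT arrays, and GPS2KO replicate 2 was highest and GPS2KO replicate 3 lowest of its group. Irf1 was at 0.09, 0.0043 and -0.09 in WT, so that its lowest WT array was the highest for Irf7. In GPS2KO it was at -0.33, -0.32 and -0.34, in the same order as Irf7. Irf9 was at 0.04, -0.03 and -0.01 in WT and at -0.20, -0.20 and -0.23 in GPS2KO. The median of all tested genes stayed between -0.01 and 0.0046 on every array. Its WT arrays, at 0.0030, -0.0071 and 0.0046, stood in the same order as those of Irf7. GPS2KO replicate 3 was its lowest GPS2KO array too, while replicate 1 was its highest. The medians of the interferon ligands and of the inhibitors also had that WT order, so it is not particular to Irf7 and the interferon-stimulated genes. This is a description of 6 arrays, whose genes share the same RNA and normalization.

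**Figure D4:**
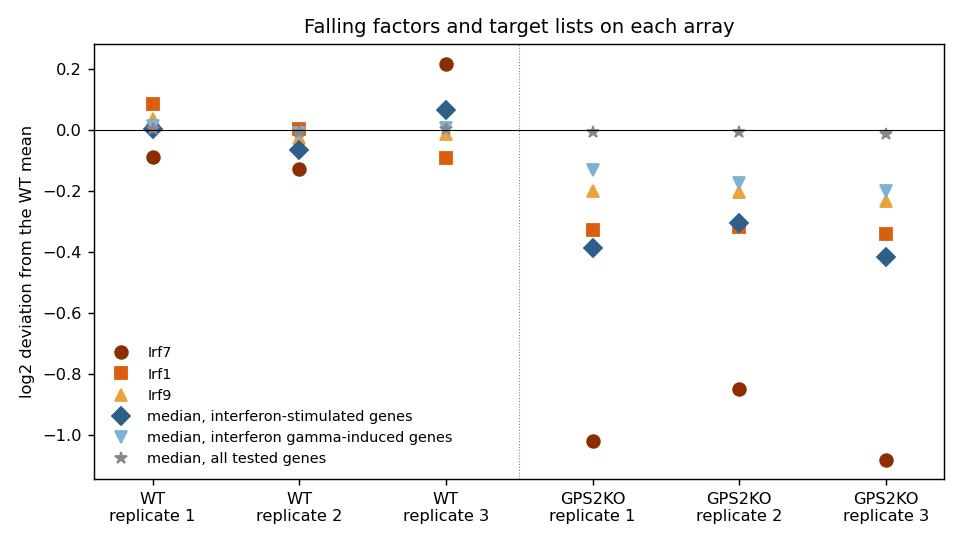
Log2 deviation from the WT mean (vertical axis) on each of the 6 arrays for Irf7, Irf1, Irf9, the medians of the interferon-stimulated and the interferon gamma-induced lists and the median of all tested genes. On the GPS2KO arrays Irf7 lies between -1.08 and -0.85, the interferon-stimulated median between -0.42 and -0.30, and the median of all genes near 0.

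The genes with the most similar profile were sought among 17608 named genes, by the root mean square distance over the 6 arrays between values centred on the WT mean, on the log2 scale. For Irf7 they were Gpr31b, a G protein-coupled receptor (distance 0.0975), Ifit2 (0.105) and the chemokine receptor Ccr2 (0.107), whose differences between genotypes were -0.90, -0.99 and -0.97. For Irf1 they were Nhsl1 (0.0202), Pstpip2 (0.0225) and Ddx58 (0.0296), with differences of -0.33, -0.34 and -0.33. The Nhsl1 difference did not pass with the mean of its probe sets (adjusted p = 0.133). For Irf9 they were Lipe, the hormone-sensitive lipase (0.0113), the inflammasome sensor Nlrp3 (0.0164) and Emp2 (0.0166), at -0.21, -0.22 and -0.21. Lipe was at -0.11 with the mean of its probe sets (adjusted p = 0.243), and the calls of Lipe, Nlrp3 and Emp2 each ended with several single arrays left out (up to 0.0679, 0.0622 and 0.0957). The distance includes the difference between genotypes, so differences close to that of each factor follow from the choice and are no result. Since the differences of the 3 factors differ in size, their distances are not set against each other.

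Chromosomal neighbours passed at about the share of all genes. Among the 80 tested genes that flank the 8 factors, 5 on each side in RefSeq order, 5 fell and 1 rose, or 7.5%, beside 6.72% of all genes. Of the 10 neighbours of Irf7, 0 passed limma's threshold and 0 had an unadjusted p under 0.05. Those next to it, Phrf1 and Cdhr5, differed by -0.01 and -0.06 (adjusted p = 0.939 and 0.606). Il5 and Slc22a5, next to Irf1, differed by 0.05 and -0.0087 (0.768 and 0.953). Further along, the carnitine-related transporter Slc22a4 fell by 0.81 (SE 0.0466, 0.000189) and Pdlim4 rose by 0.61 (SE 0.0474, 0.000479). Around Irf9, as around Irf1, Irf3 and Irf5, 3 of the 10 neighbours had an unadjusted limma p under 0.05. Around each of Irf2, Irf4 and Irf8 it was 1 of 10, beside 20.8% of all genes. The 3 around Irf9 were Psme1, Psme2 and Rnf31, all lower in GPS2KO. Rnf31 and Rec8, next to Irf9, differed by -0.12 and 0.13 (0.131 and 0.272), and Psme2, 2 positions from Irf9, by -0.18 (0.0888). Psme1, a proteasome activator subunit 4 positions away, fell by 0.17 (SE 0.0386, 0.0396), a call that ended without any 1 of the arrays (up to 0.126).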

How the data were processed

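Each of 6 arrays gave 1 column of log2 intensities per probe set, which the authors deposited after RMA in the R package oligo, per the submitters' processing notes (background correction, quantile normalization across arrays, median polish). That the scale is log2 follows from the range of the deposited values. Versions, annotation package and genome build: not given in the sources used here. This processing makes arrays more alike and leaves no detection calls. Precision is limited by the number of arrays.

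Of 35556 probe sets, 21218 had exactly 1 gene symbol, 1881 several and 12457 were not listed. The brightest per gene left 18820 tested genes, named by gene number through RefSeq (GRCm38.p6), which was otherwise used only for neighbour order and promoters. Groups and replicate numbers came from the sample titles. Tests used limma 3.58.1 under R 4.3.3 (lmFit, eBayes, group as the only term, 2-sided), adjusted by Benjamini-Hochberg over all tested genes at 0.05. Differences are GPS2KO minus WT. Pairs of factors were compared with statsmodels 0.14.6 in Python 3.11.15. The calculation was tested on simulated data.

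The members and lists were chosen with earlier results of these data known. Named were the 8 factors and Gps2, up to 4 called genes and 2 others of smallest p per list, the ISGF3 and receptor genes, the 3 most similar profiles (predicted or unnamed gene models passed over) and adjacent genes of each called factor. Itgax, Cd79b, Tlr4, Ifih1, Gbp7, Cd74, Ctsc, Tbk1, Ifnb1, Spi1, Batf3, Irf2bp2, Il1a, Il10, Slc22a4, Pdlim4, Psme1 and the genes with printed sites outside that rule were named after their values were seen. Psme2 was also named after its values were seen. Of the list symbols, Tmem173 and Mb21d1 were updated to Sting1 and Cgas. Alternatives were quantile normalization, median centring, a variance trend, leaving out dim genes, the mean of probe sets, adjusting over all probe sets, a replicate block and leaving out each array. The planned comparison of proteins was not run, and 1 planned pair is not reported here.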

Additional observations from a re-analysis of the deposited data

How the results depend on the processing

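The falls of Irf7, Irf1 and Gps2 kept direction and call under all 13 alternatives, with Irf7 between -1.05 and -0.87, Irf1 between -0.37 and -0.20 and Gps2 between -0.78 and -0.72. Irf2, Irf4 and Irf8 stayed below 0 and uncalled. Irf9 was uncalled, at -0.21, with all probe sets adjusted together (adjusted p = 0.0522) and with a replicate block (0.0544), and lay between -0.22 and -0.19 with 1 array left out. Irf3 turned to 0.0047 after quantile normalization and ranged from -0.0459 to 0.0431 with 1 array left out. Irf5 ranged from -0.0435 to 0.0160. Irf4 minus Irf8 ranged from -0.10 to 0.000663, and Irf9 minus Stat2 from -0.0314 to 0.0495, with -0.00498 after quantile normalization. Of the list genes 33 passed with all probe sets adjusted together, against 55, and 39 to 49 with 1 array left out. Over all genes 618 passed with all probe sets adjusted together, 2174 with a variance trend and 862 with the replicate block, against 1265. Without dim genes 1962 of 11292 passed, and with 1 array left out 749 to 842 of all genes. The calls of Gbp7 (0.0867), Il4ra (0.0677), Il1a (0.121), Il10 (0.0914), Ctsc (0.108), Psme1 (0.0927), Lipe (0.0528) and Emp2 (0.0732) also ended with all probe sets adjusted together. Among adjacent genes Il5 ranged from -0.0269 to 0.10, Slc22a5 from -0.0379 to 0.0362 and Phrf1 from -0.0558 to 0.0264, with 0.0029 after quantile normalization. Same-numbered arrays did not deviate together (correlations 0.0035, 0.0258 and -0.0060), so the replicate block has no basis beyond the number; with it 2 members and 45 list genes passed, and Stat4 did not (0.0524). Irf4 was not in the fit without dim genes. Several named list genes uncalled in the main fit passed with a variance trend in limma. Among them were Ifi35 (adjusted p = 0.0103), Otud5 (0.0108), Ifngr1 (0.0145), Gbp5 (0.0154), Nlrc5 (0.027), Clec10a (0.0381) and Ctss (0.000805). Small changes of dim genes are the limit of these arrays.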
